A study of Sus scrofa with 5 samples.

Results

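The change of a pig kidney graft between 24 h and 48 h in a human recipient was read from 2 of the 5 bulk RNA libraries of the series, 1 xenograft biopsy at each of these times. A gene counted as measured when it had 50 or more counts in at least 1 of the 2 libraries, which left 11621 of 15235 gene symbols in the pig table. The other libraries were 1 xenograft biopsy at 12 h, taken as the same graft, and replicates 1 and 2 of untransplanted control kidney at 0 h. The labels speak of a second kidney and give pig as the organism of every library. They name no gene edit of the donor, no drug given to the recipient and no age. The cell type field speaks of dissociated kidney cells, whereas the extraction protocol describes homogenised core biopsies, from which total RNA was sequenced after removal of ribosomal RNA. With 1 library at each time there is no replicate check and no test: a gene is said to have risen or fallen when its level differed at least 2-fold, and the difference between the control libraries is the only measure of spread. Nothing in the labels says that the controls came from separate animals.

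A transplanted kidney loses its blood supply and regains it at once with oxygen and foreign blood. Tubule cells that survive such an insult lose part of their transport programme, and some re-enter the cell cycle, copying their DNA in S phase under the E2F factors and then dividing under cyclin B and CDK1. Resident macrophages, fibroblasts and vessel cells respond in the same hours, with complement, matrix and antigen-presentation genes among those known to move. In a xenograft the infiltrating leukocytes are human, so their RNA is sought in the human table and the RNA of the organ itself in the pig table.

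Pig-table totals of the 5 libraries ran from 56128093 to 71105758 counts, the lowest at 48 h. Levels are CPM, counts scaled to a common library total, after TMM scaling, a factor per library that lines up the bulk of the genes. Mitochondrially encoded RNA took 11.8% of pig-table counts at 48 h and 14.5% at 24 h, against 21.9% and 33.4% in the controls. Kidney markers were present at both times. Summed levels were 1985 CPM at 48 h and 2561 CPM at 24 h for proximal tubule, 113 and 80.7 CPM for podocytes and 615 and 623 CPM for endothelium. Fibroblast markers summed to 6596 CPM at 48 h and 3802 CPM at 24 h, and smooth muscle markers to 777 and 438 CPM. Leukocyte markers of the pig table summed to 271 CPM at 48 h and 260 CPM at 24 h, against 34.6 and 37.4 CPM in the controls, with S100A8 under 50 counts. The macrophage gene CD163 made up most of the biopsy sums, with 247 CPM at 48 h and 245 CPM at 24 h. The sums therefore do not stand for leukocytes as a whole. PTPRC, the pan-leukocyte marker, was below its controls at 24 h and only a little above them at 48 h. Red cell markers summed to under 1 CPM at both times, with HBM and ALAS2 under 50 counts. In bulk tissue, fewer cells of a type and less RNA per cell cannot be told apart, and the part of these marker levels in the results was not tested.

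At 48 h, 518 genes (4.46% of those measured) differed at least 2-fold from 24 h, of which 404 were higher (3.48%) and 114 lower (0.981%). Each difference was set against the gene's own difference between the controls, which 401 of the higher (3.45%) and 113 of the lower genes (0.972%) exceeded. Between control replicates 1 and 2, 34 of 11275 genes (0.302%) differed by as much, 31 higher (0.275%) and 3 lower (0.0266%) in replicate 1. The median absolute log2 difference was 0.185 between 48 h and 24 h and 0.139 between the controls, and its 99th percentile was 1.91 between the biopsies and 0.815 between the controls. The 2 pairs thus stood close together for the typical gene and apart in the tail. Between 24 h and 12 h, biopsies that share the 24 h library with this comparison, 518 of 11551 genes (4.48%) passed 2-fold, 337 higher (2.92%) and 181 lower (1.57%) at 24 h.

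**Figure D1:**
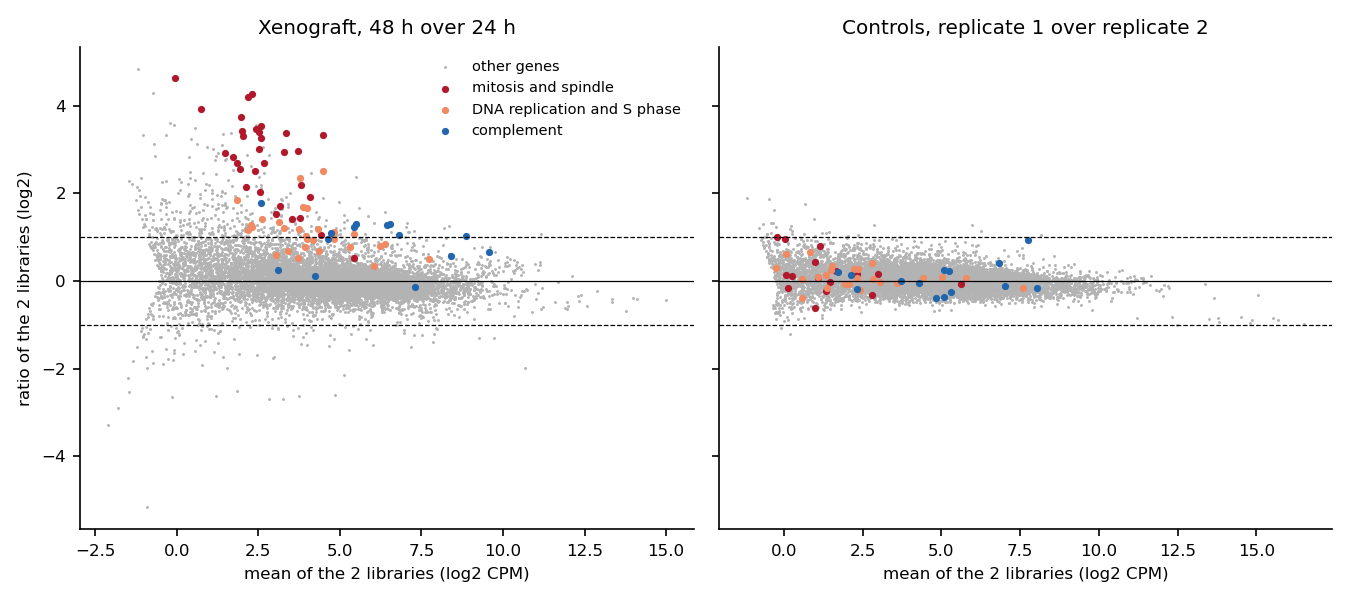
Ratio (log2) against mean level (log2 CPM) of every measured gene, 48 h over 24 h at left and control replicate 1 over replicate 2 at right, with dashed lines at 2-fold. Red, orange and blue points are genes of mitosis, DNA replication and complement. The mitosis genes lie highest in the biopsy pair, with ASPM at 4.64, and nearly all of those measured in the control pair lie within 2-fold there.

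The share past 2-fold depended on the count. It was 14.9% among genes whose higher library had 50 to 200 counts, 7.48% for 200 to 1000 counts and 1.89% for 1000 or more. The same bands gave 1.66%, 0.207% and 0.0714% between the controls. At the edge of the call, MT1A was 2.00-fold higher and just inside, while SELP had 5.79 CPM at 48 h and 11.6 CPM at 24 h and fell just outside. No measured gene was at 0 counts at 48 h or at 24 h. Intervals given with folds below are exact 95% intervals of the counts of the 2 libraries. They cover counting error only, because each time is 1 library and no spread between biopsies enters. No molecular identifiers told copies of 1 molecule from separate molecules, so the intervals may be too narrow even for counting error.

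The genes that rose most were genes of cell division. Of 36 genes on a mitosis and spindle list, 32 were measured, 31 rose (96.9%) and 0 fell. Over all measured genes 3.48% rose and 0.981% fell. The list had a median log2 ratio of 2.93 beside a median of -0.0023 over all measured genes. Its summed level was 654 CPM at 48 h and 141 CPM at 24 h, with 116 CPM at 12 h and 100 and 98.2 CPM in the controls. PRC1, a bundler of spindle microtubules and the highest member in the controls, made up much of the lower sums. Without it, a choice made after seeing the data, the sum was 603 CPM at 48 h and 105 CPM at 24 h, with 76.3 CPM at 12 h and 52.1 and 47.7 CPM in the controls. At 24 h 28 of the 32 genes were already above both controls, and the step to 48 h was larger than the one before it.

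CCNB1 encodes cyclin B1, which drives entry into mitosis with CDK1. It had 21.6 CPM at 48 h, against 1.11 CPM at 24 h, and stood at 0.693 CPM at 12 h and at 0.821 and 0.592 CPM in the controls. CCNB1 was thus low in 4 libraries and high at 48 h alone, 19.3-fold above 24 h (95% interval 15.5 to 24.5). CDK1 itself had 32.7 CPM at 48 h and 3.14 CPM at 24 h, a 10.4-fold rise (9.08 to 12.0), with 1.58 CPM at 12 h and 1.22 and 0.612 CPM in the controls. TOP2A, the topoisomerase that untangles replicated chromosomes, had 71.3 CPM at 48 h, against 7.13 CPM at 24 h, 2.20 CPM at 12 h and 2.9 and 1.66 CPM in the controls. ASPM, a protein of the spindle poles, had the largest fold of the list, 24.9 (14.6 to 46.0), from 4.79 CPM at 48 h and 0.193 CPM at 24 h. CENPF, a kinetochore protein, had 19.4 CPM at 48 h and 1.06 CPM at 24 h, and CENPA, the histone variant that marks centromeres, had 6.54 and 0.427 CPM. CCNB2, the second B-type cyclin, rose 13.4-fold, to 14.2 CPM at 48 h against 1.06 CPM at 24 h.

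The 12 genes with the largest rise among those with at least 200 counts were ASPM, CCNB1, CENPF, CENPA, CCNB2, KIF14, HJURP, SHCBP1, DLGAP5, CCNF, KIF20A and NDC80, with folds of 24.9 down to 10.8. All but 4 of them, KIF14, HJURP, SHCBP1 and CCNF, were on the mitosis list. KIF14 and KIF20A are kinesin motors of the dividing cell, HJURP loads CENPA onto centromeres and NDC80 ties kinetochores to microtubules. SHCBP1 had 18.5 CPM at 48 h and 1.58 CPM at 24 h. All 12 genes were under 2 CPM at 24 h. The member of the list that stayed inside 2-fold was PRC1, with 51.8 CPM at 48 h and 36.2 CPM at 24 h. PRC1 was at 48.0 and 50.6 CPM in the controls, so that unlike the others it was not low in untransplanted kidney. ECT2, which sets the cleavage furrow, rose least of the 31, 2.07-fold.

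Genes of DNA replication had smaller ratios than those of mitosis. Their summed level was 1144 CPM at 48 h and 628 CPM at 24 h. It was 514 CPM at 12 h and 381 and 391 CPM in the controls. Of 35 genes on the list, 29 were measured and all 29 had a ratio above 1, with a median log2 ratio of 1.07. Past 2-fold, 16 rose (55.2%, against 3.48% over all measured genes) and 0 fell. PCLAF, a PCNA partner at the replication fork, had 52.9 CPM at 48 h, against 9.33 CPM at 24 h, 1.58 CPM at 12 h and 1.52 and 1.47 CPM in the controls, a 5.66-fold rise (5.22 to 6.16). TK1, thymidine kinase, rose 5.06-fold to 30.5 CPM at 48 h against 6.03 CPM at 24 h, and TYMS, thymidylate synthase, rose 3.16-fold to 28.0 CPM against 8.86 CPM. MCM4, a subunit of the helicase that opens DNA, had 62.2 CPM at 48 h and 29.7 CPM at 24 h, with 18.2 CPM at 12 h and 5.18 and 4.93 CPM in the controls. MCM4 was therefore above both controls at 12 h, where CCNB1 was within their range, and was higher at each later biopsy. MCM2, of the same helicase, had 51.3 CPM at 48 h and 30.1 CPM at 24 h, a ratio of 1.71. PCNA, the sliding clamp, had 254 CPM at 48 h and 180 CPM at 24 h, with 181 and 202 CPM in the controls, and stayed inside 2-fold. E2F1, the factor that switches S phase genes on, rose to 22.0 CPM at 48 h, against 10.8 CPM at 24 h, 3.23 CPM at 12 h and 1.29 and 0.841 CPM in the controls.

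Of 15 measured DNA repair genes 9 rose (60.0%, against 3.48% over all measured genes) and 0 fell, with a median log2 ratio of 1.03. Of the 9, 8 rose past their own control difference. FANCD2, of the Fanconi crosslink repair pathway, rose 2.58-fold to 17.7 CPM at 48 h against 6.87 CPM at 24 h. ATM, the kinase that senses double-strand breaks, was at 23.0 CPM at 48 h and 21.7 CPM at 24 h. XRCC2 is the repair gene whose rise was within its control difference. Of 15 measured genes of p53 action and cell cycle arrest, 1 rose (6.67%) and 0 fell, with a median log2 ratio of 0.18. A single rise in a list of this size is near the share over all genes. The gene that rose was CDKN2B, an inhibitor of CDK4 and CDK6, at 1.32 CPM at 48 h and 0.385 CPM at 24 h. CDKN1A, the p21 inhibitor, had 40.4 CPM at 48 h and 35.9 CPM at 24 h, below the 62.6 CPM of 12 h and above the 10.5 CPM of each control.

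The human table was read beside these rows. For the mitosis list it held 31.4 counts per 100 pig-table counts at 48 h and 24.3 at 24 h, and for the replication list 27.7 and 25.7. In the controls, which hold no human tissue by their labels, the figures were 13.1 and 18.3. PRC1 has almost no human-table counts, and without it the figures for the mitosis list were 34.1 at 48 h, 32.7 at 24 h and 26.0 in the controls. For TOP2A the human table held 41.3 counts per 100 at 48 h, 43.1 at 24 h and 35.0 in the controls, and for CDK1 59.9, 60.1 and 54.3. For TOP2A and CDK1 the ratio of the tables was thus close to that of untransplanted pig kidney at both times, and their human-table counts were higher at 48 h in step with the pig table. For CENPF the ratio was 15.3 at 48 h, 10.4 at 24 h and 4.41 in the controls, and for ASPM 30.1, 14.3 and 27.3. The human table held only 8 CENPF counts at 24 h and 3 and 0 in control replicates 1 and 2. For ASPM it held 2 at 24 h and 0 and 3 in the controls. No change in these ratios is therefore read from either gene.

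**Figure D2:**
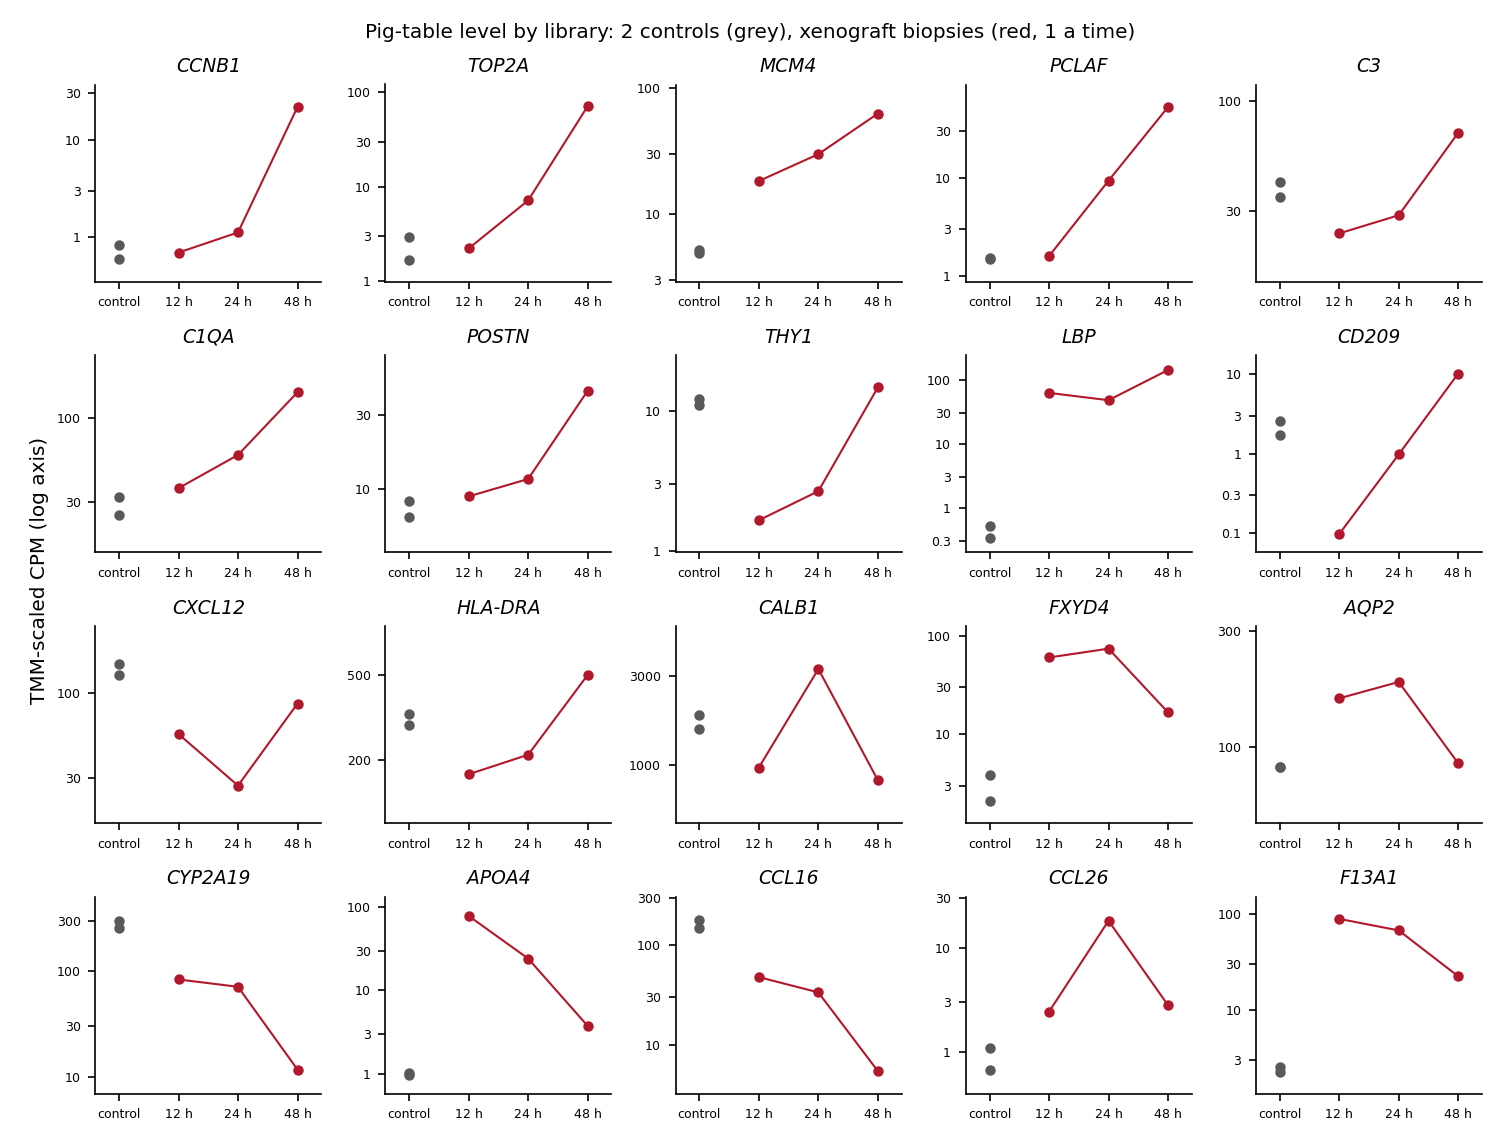
TMM-scaled CPM (log axis) of 20 genes in each library, the controls as grey points and the xenograft biopsies at 12, 24 and 48 h as red points, 1 library each. CCNB1 and TOP2A are highest at 48 h, CALB1 and CCL26 are highest at 24 h, and APOA4 falls from its 12 h level at each later biopsy.

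Complement genes had the third highest list median. Complement is the blood cascade that tags and lyses foreign cells, and kidney tubules and macrophages make several of its parts themselves. Of 26 genes on the list 14 were measured, with a median log2 ratio of 1.04. Past 2-fold, 8 rose (57.1%, against 3.48% over all measured genes) and 0 fell. C3, the hub of the cascade, had 70.7 CPM at 48 h, against 28.6 CPM at 24 h, 23.4 CPM at 12 h and 41.0 and 34.9 CPM in the controls, a 2.48-fold rise (2.35 to 2.61). C5, cleaved after C3, had 66.8 CPM at 48 h and 28.4 CPM at 24 h, with 36.8 and 31.2 CPM in the controls. Both were below their controls at 24 h and above them at 48 h. C6, of the membrane attack complex, rose 3.45-fold to 11.1 CPM against 3.22 CPM. C2, of the classical pathway convertase, rose to 38.5 CPM at 48 h against 18 CPM at 24 h, and CLU, clusterin, an inhibitor of the terminal complex, to 674 CPM against 329 CPM. C4A had 149 CPM at 48 h and 165 CPM at 24 h, both below the 252 and 279 CPM of the controls.

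The subunits of C1q, which macrophages make and which binds antibody on a cell surface, rose together. C1QA had 146 CPM at 48 h and 59.1 CPM at 24 h, with 36.7 CPM at 12 h and 24.8 and 32.3 CPM in the controls. C1QB had 135 CPM at 48 h and 55.9 CPM at 24 h, and C1QC had 163 and 78.4 CPM. The human table held 3963 C1QA counts at 48 h and 1737 at 24 h, against 21 and 49 in the controls, so C1QA rose there too. Human counts of C1QA were 40.5 per 100 pig-table counts at 48 h and 40.4 at 24 h, against 2.21 in the controls. How far the same reads count in both tables was not tested. For C3 and C5 the human figures were 7.24 and 18.9 per 100 at 48 h, 6.41 and 18.6 at 24 h and 5.60 and 17.0 in the controls.

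Of the genes of the acute phase and of lipid carriage, 4 of 16 measured rose (25.0%) and 2 fell (12.5%). Over all measured genes 3.48% rose and 0.981% fell. The median log2 ratio of the list was 0.06. LBP, which presents bacterial lipopolysaccharide to CD14, had 143 CPM at 48 h, against 48.3 CPM at 24 h, 62.8 CPM at 12 h and 0.519 and 0.344 CPM in the controls. CP, ceruloplasmin, rose 2.51-fold to 212 CPM against 84.4 CPM. PTX3, a pattern-recognition protein, had 6.76 CPM at 48 h and 2.82 CPM at 24 h but 24.6 CPM at 12 h, so the 48 h level lay between the other times. SERPINA1 was at 1.27 CPM at 48 h and 0.578 CPM at 24 h, and the human table held 2713 counts at 48 h and 2729 at 24 h for each 100 of the pig table. The genes that fell were APOA4 and TTR, carriers of lipid and of thyroid hormone and retinol. APOA4 had 3.75 CPM at 48 h, against 24.2 CPM at 24 h, 78.7 CPM at 12 h and 0.971 and 1.03 CPM in the controls, and was 6.44-fold lower at 48 h (5.64 to 7.38). TTR had 1.44 CPM at 48 h and 5.75 CPM at 24 h, below the 12.8 and 14.0 CPM of the controls. APOA4 therefore moved toward its control level and TTR away from it. FGB, a fibrinogen chain, had 33.5 CPM at 48 h, 48.7 CPM at 24 h and 91.3 CPM at 12 h.

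Of 26 measured genes of fibroblasts and matrix, 25 had a ratio above 1, with a median log2 ratio of 0.48. Past 2-fold, 4 rose (15.4%, against 3.48% over all measured genes) and 0 fell. The controls differed by a median of 0.50 on the same list, replicate 1 over replicate 2, so the list's shift was no larger than the spread between the controls. THY1, a surface protein of fibroblasts and of other cells, had 14.9 CPM at 48 h and 2.68 CPM at 24 h, with 1.66 CPM at 12 h and 12.3 and 11.1 CPM in the controls. Its 5.53-fold rise (4.74 to 6.49) brought it from far below the controls to just above them. POSTN, periostin, a matrix protein of healing tissue, had 43.1 CPM at 48 h, against 11.5 CPM at 24 h, 8.91 CPM at 12 h and 8.32 and 6.55 CPM in the controls. TGFBI, a matrix protein induced by TGF-beta, rose 2.60-fold to 60.5 CPM against 23.2 CPM. COL3A1, type III collagen, had 3314 CPM at 48 h and 1577 CPM at 24 h, with 950 CPM at 12 h and 460 and 312 CPM in the controls. COL1A1, type I collagen, had 770 CPM at 48 h and 528 CPM at 24 h, a ratio of 1.46 that did not exceed its control ratio of 1.49. FN1, fibronectin, stood at 159 CPM at 48 h and 158 CPM at 24 h.

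Among 13 smooth muscle and pericyte genes 2 rose (15.4%, against 3.48% over all measured genes) and 0 fell, with a median log2 ratio of 0.12. The controls differed by a median of 0.23 on this list, so its shift was within their spread. ACTA2, smooth muscle actin, which myofibroblasts also make, had 439 CPM at 48 h and 191 CPM at 24 h, with 158 CPM at 12 h and 149 and 116 CPM in the controls. RGS5, a pericyte marker, had 55.5 CPM at 48 h and 21.9 CPM at 24 h, with 51.9 and 53 CPM in the controls. MYH11, the myosin of mature smooth muscle, was at 22.7 CPM at 48 h and 29.4 CPM at 24 h. RGS5 was back at its control level at 48 h, while ACTA2 was above it.

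Genes of nephron transport were mostly lower at 48 h. The 2 lowest list medians of the 44 lists with a measured member were those of mitochondrially encoded genes and of proximal tubule. Of 27 measured proximal tubule genes 24 had a ratio below 1, with a median log2 ratio of -0.44. Past 2-fold, 2 fell (7.41%, against 0.981% over all measured genes) and 0 rose. SLC13A3, the dicarboxylate carrier of the basolateral membrane, had 142 CPM at 48 h, against 376 CPM at 24 h, 460 CPM at 12 h and 874 and 908 CPM in the controls, 2.65-fold lower at 48 h (2.59 to 2.71). SLC22A6, the organic anion transporter OAT1, had 40.6 CPM at 48 h and 88.7 CPM at 24 h, with 391 and 438 CPM in the controls. G6PC1, which releases glucose in gluconeogenesis, had 188 CPM at 48 h and 351 CPM at 24 h, a ratio inside 2-fold. LRP2, the endocytic receptor megalin, had 873 CPM at 48 h and 1056 CPM at 24 h, but 471 CPM at 12 h and 3356 and 3104 CPM in the controls. All 4 were far below their controls at both times and moved further from them, SLC13A3 and SLC22A6 by more than 2-fold.

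In the loop of Henle and distal tubule, 2 of 17 measured genes fell (11.8%) and 1 rose (5.88%), with a median log2 ratio of -0.35. Over all measured genes 0.981% fell and 3.48% rose. CALB1, the calcium buffer of the distal convoluted tubule, had 830 CPM at 48 h, against 3271 CPM at 24 h, 970 CPM at 12 h and 1848 and 1556 CPM in the controls. It was 3.94-fold lower at 48 h (3.91 to 3.98), and its 24 h level was the highest of the 5 libraries. SLC8A1, the sodium-calcium exchanger of the same cells, had 83.2 CPM at 48 h and 190 CPM at 24 h, with 97.7 CPM at 12 h and 137 and 121 CPM in the controls. CALB1 and SLC8A1 were both below their controls at 48 h and at 12 h and above them at 24 h. The gene that rose was PVALB, parvalbumin, at 1.73 CPM at 48 h and 0.661 CPM at 24 h. UMOD, uromodulin of the thick ascending limb, had 3376 CPM at 48 h and 4997 CPM at 24 h, with 2666 and 2532 CPM in the controls, a change inside 2-fold. SLC12A3, the thiazide-sensitive cotransporter of the distal convoluted tubule, had 46.4 CPM at 48 h, 74.2 CPM at 24 h and 26.7 CPM at 12 h.

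In the collecting duct, 3 of 18 measured genes fell (16.7%, against 0.981% over all measured genes) and 0 rose, with a median log2 ratio of -0.39. FXYD4, a regulator of the sodium pump, had 16.7 CPM at 48 h, against 74.2 CPM at 24 h, 60.4 CPM at 12 h and 3.87 and 2.12 CPM in the controls. AQP2, the vasopressin-controlled water channel, had 85.7 CPM at 48 h and 185 CPM at 24 h, with 159 CPM at 12 h and 82.6 and 82.9 CPM in the controls. KCNJ10, a basolateral potassium channel, had 32.3 CPM at 48 h and 69.6 CPM at 24 h, with 47.3 and 43.7 CPM in the controls. Each of the 3 was above its controls at 24 h. At 48 h AQP2 was near them, FXYD4 still above and KCNJ10 below. With library totals in place of TMM, AQP2 and KCNJ10 no longer passed 2-fold, at log2 ratios of -0.99 and -0.98, and 1 of the 3 calls was left. Of 15 measured podocyte genes 0 passed 2-fold either way, beside 4.46% of all measured genes, and nothing is read from that count. Their median log2 ratio was 0.27, beside 0.24 between the controls.

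Of 18 measured enzymes of drug and steroid metabolism 5 fell (27.8%) and 1 rose (5.56%), with a median log2 ratio of -0.16. Over all measured genes 0.981% fell and 3.48% rose. CYP2A19, a pig cytochrome P450 of the CYP2A family, had 11.7 CPM at 48 h, against 71.0 CPM at 24 h, 83.4 CPM at 12 h and 258 and 298 CPM in the controls, 6.08-fold lower at 48 h (5.64 to 6.56). HAO2, a peroxisomal hydroxyacid oxidase, had 393 CPM at 48 h and 971 CPM at 24 h, with 1009 CPM at 12 h and 847 and 930 CPM in the controls. CYP2C42, another pig P450, had 542 CPM at 48 h and 1341 CPM at 24 h, with 469 CPM at 12 h and 446 and 483 CPM in the controls. CYP4A24, of a fatty acid hydroxylase family, had 155 CPM at 48 h and 356 CPM at 24 h, with 190 CPM at 12 h. The fall took different forms: CYP2A19 was already below its controls at 24 h and moved further from them, HAO2 went below its controls, and CYP2C42 came back near its controls after a 24 h level above all other libraries. Pig P450 genes are a family of close copies, and reads that fit several of them cannot be placed with certainty.

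Energy genes were measured on 3 lists, on which no gene passed 2-fold. The share over all measured genes was 4.46%, so a count of 0 in each of these lists carries little weight. Of 22 measured genes of fatty acid oxidation 21 had a ratio below 1 and 0 passed 2-fold, with a median log2 ratio of -0.28. The controls differed by a median of -0.03 on that list. Of 25 nuclear respiratory chain genes 0 passed, with a median of -0.19, and of 13 mitochondrially encoded genes all 13 had a ratio below 1 and 0 passed, with a median of -0.43. The controls differed by a median of -0.21 on the nuclear and -0.86 on the mitochondrially encoded list, so both shifts were within their spread. Cytosolic ribosome genes went the other way, with all 24 above 1, 0 past 2-fold and a median of 0.35, beside -0.23 between the controls.

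Among the stress lists, hypoxia genes had 3 falls and the others at most 1 call. No measured gene passed 2-fold among 18 immediate early genes, 14 heat shock genes, 26 genes of the unfolded protein and integrated stress response, 15 glucocorticoid-induced genes and 17 clock genes, with medians of -0.06, -0.26, -0.22, -0.02 and -0.13 on the log2 scale, of which the immediate early and glucocorticoid ones turned positive, 0.07 and 0.11, when library totals replaced TMM. Over all measured genes 4.46% passed, and nothing is read from a count of 0 in lists of this size. The controls differed by a median of 0.38 on the immediate early list, more than its shift. Of 16 NRF2 and metal response genes 1 rose, MT1A, a metallothionein, with 9.65 CPM at 48 h and 4.82 CPM at 24 h, and 0 fell, with a median of -0.20. Of 26 hypoxia and glycolysis genes 3 fell (11.5%, against 0.981% over all genes) and 0 rose, with a median of -0.31. With library totals CA9 and STC2 no longer passed 2-fold, at log2 ratios of -0.89 and -0.89. STC1, a secreted calcium and phosphate regulator induced by hypoxia, had 4.29 CPM at 48 h, against 14.2 CPM at 24 h, 25.6 CPM at 12 h and 32.1 and 26.9 CPM in the controls. CA9, a carbonic anhydrase under HIF control, had 10.2 CPM at 48 h, 20.6 CPM at 24 h and 28.9 CPM at 12 h, with 7.37 and 8.14 CPM in the controls. STC2 had 4.02 CPM at 48 h, 8.09 CPM at 24 h and 15.4 CPM at 12 h, with 0.469 and 0.516 CPM in the controls. All 3 were highest at 12 h within the graft, and CA9 and STC2 remained above their controls at 48 h, whereas STC1 was far below them. Of 27 tubular injury genes 1 rose and 0 fell, with a median of 0.10, beside 0.15 between the controls. SPP1, osteopontin, stood at 4566 CPM at 48 h and 4256 CPM at 24 h, against 75.6 and 73.8 CPM in the controls. VCAM1, the adhesion molecule of injured tubule and vessel, had 242 CPM at 48 h and 122 CPM at 24 h, just inside 2-fold.

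**Figure D3:**
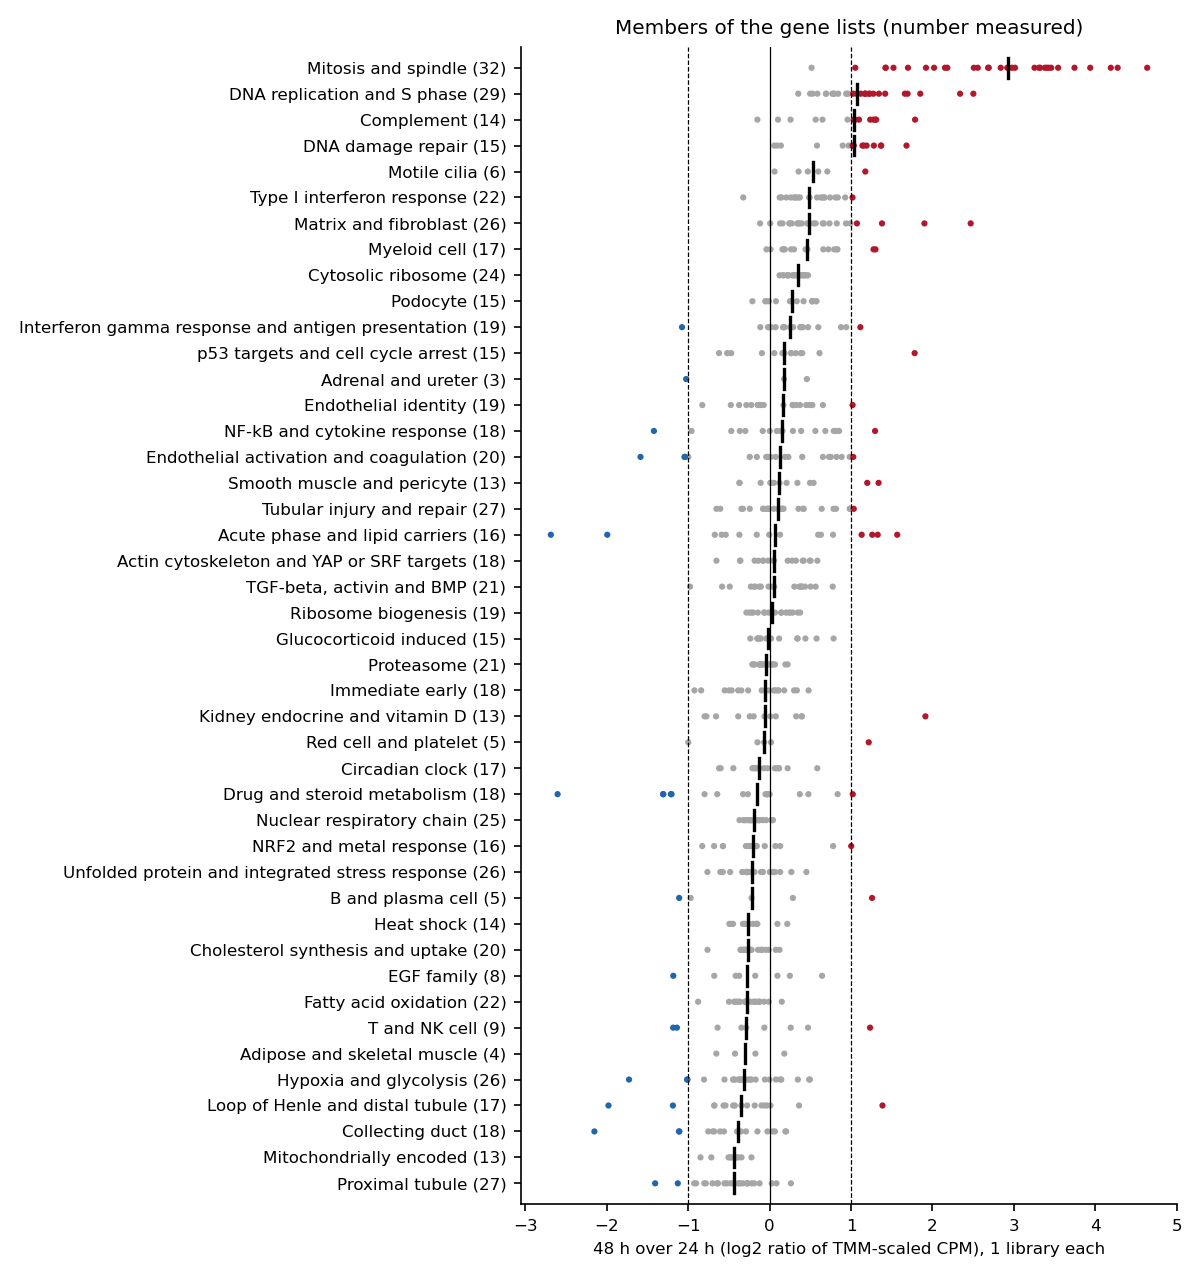
Log2 ratio of 48 h over 24 h for each measured member of 44 gene lists, ordered by median (black bar), with red points at least 2-fold higher, blue points at least 2-fold lower and dashed lines at 2-fold. The mitosis list has the highest median, 2.93, and the proximal tubule list the lowest, -0.44. Several lists differ as much or more between the controls. Among them are the fibroblast and matrix, mitochondrially encoded, nuclear respiratory chain, smooth muscle, endothelial, immediate early and tubular injury lists.

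Antigen-presentation and interferon genes were read in both tables, since human leukocytes carry them too. Of the pig table's genes, 1 of 19 measured genes of the interferon gamma and antigen-presentation list rose and 1 fell (5.26% each). The median log2 ratio was 0.25. Over all measured genes 3.48% rose and 0.981% fell, so single calls in this list carry no result about it. SLA-DQB1, a chain of pig MHC class II, had 202 CPM at 48 h and 93.5 CPM at 24 h, with 69.1 CPM at 12 h and 119 and 113 CPM in the controls. The pig table's HLA-DRA row, the class II alpha chain, had 500 CPM at 48 h and 211 CPM at 24 h, with 170 CPM at 12 h and 327 and 291 CPM in the controls. Both were below their controls at 24 h and above them at 48 h. For HLA-DRA the human table held 20205 counts at 48 h and 6213 at 24 h, which is 60.1 and 40.6 per 100 pig-table counts, against 9.50 in the controls.

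The chemokines CXCL9, CXCL10 and CXCL11, which draw T and NK cells through CXCR3, differed between the tables. In the pig table CXCL9 had 41.6 CPM at 48 h and 39.6 CPM at 24 h, CXCL10 had 58.4 and 63.2 CPM, and CXCL11 fell to 5.85 CPM at 48 h against 12.3 CPM at 24 h. The human table held 181, 210 and 217 counts per 100 pig-table counts of CXCL9, CXCL10 and CXCL11 at 48 h, against 17.9, 22.8 and 15.3 at 24 h. The human share was thus higher at 48 h for all 3, while pig-table CXCL9 and CXCL10 stayed inside 2-fold and CXCL11 fell, a call lost with library totals at a log2 ratio of -0.95. B2M, the light chain of MHC class I, had 1454 CPM at 48 h and 1221 CPM at 24 h in the pig table, with 36.5 and 14.9 human counts per 100. Of 22 type I interferon genes measured for pig 21 had a ratio above 1, with a median log2 ratio of 0.49. Past 2-fold, 1 rose (4.55%, near the 3.48% of all measured genes) and 0 fell. The gene that rose was DDX60, a sensor of viral RNA, 2.03-fold higher. Its human counts per 100 were 72.5 at 48 h, 35.2 at 24 h and 4.65 in the controls. Over this list the human figure was 19.4 per 100 at 48 h, 11.9 at 24 h and 6.75 in the controls.

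Myeloid genes of the pig table had a median log2 ratio of 0.46 over 17 measured. Of these 2, C1QA and C1QB, rose (11.8%, against 3.48% over all measured genes) and 0 fell. CD163, the haemoglobin scavenger receptor of macrophages, stood at 247 CPM at 48 h and 245 CPM at 24 h, against 13.2 and 14.4 CPM in the controls. CSF1R, the receptor for macrophage growth factor, had 66.4 CPM at 48 h and 48.2 CPM at 24 h. PTPRC, the pan-leukocyte antigen CD45, had 22.8 CPM at 48 h and 13.2 CPM at 24 h, with 19.2 and 20.3 CPM in the controls, beside 184 and 127 human counts per 100 in the biopsies and 6.74 in the controls. The 24 genes of the myeloid list summed to 61099 human-table counts at 48 h and 40427 at 24 h, against 1618 and 1553 in the controls, and the 28 genes of the T and NK list to 2947 and 1110, against 143 and 78. For pig, 9 T and NK genes were measured, 1 rose (11.1%) and 2 fell (22.2%). Those 3 were under 1 CPM in both biopsies. Over all measured genes 3.48% rose and 0.981% fell, and so few calls in a short list carry no result about it. GNLY, granulysin of cytotoxic cells, had 0.357 CPM at 48 h and 0.812 CPM at 24 h, against 8.68 and 11.3 CPM in the controls, with 1621 human counts per 100 at 48 h and 292 at 24 h. Of the cytokine and NF-kB genes 1 of 18 rose and 1 fell (5.56% each), too few to carry a result about the list. CCL5, a chemokine for T cells, had 6.79 CPM at 48 h and 2.77 CPM at 24 h, and IL11 had 0.715 and 1.91 CPM.

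**Figure D4:**
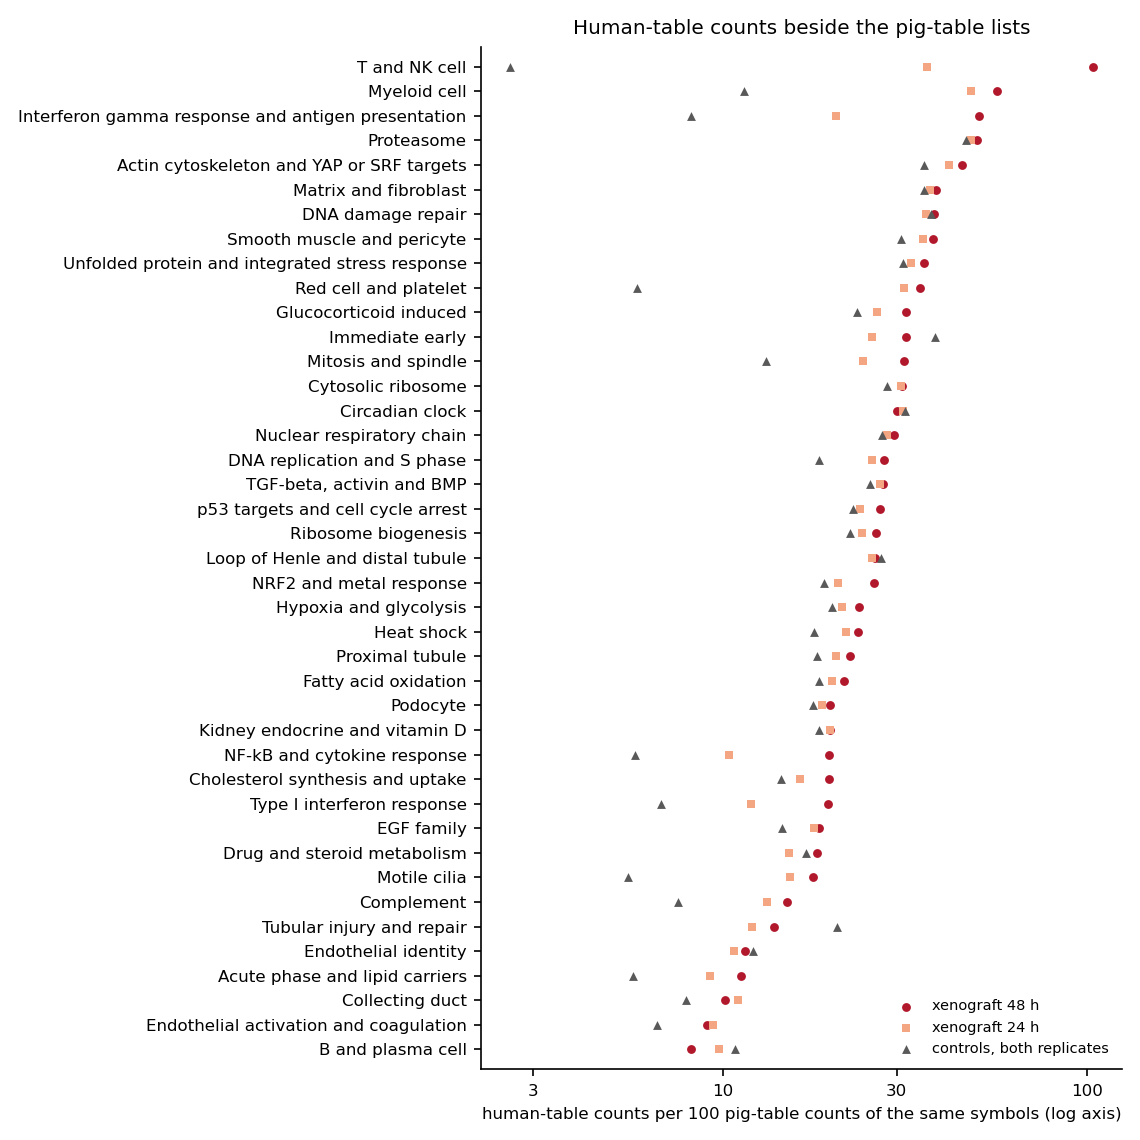
Counts in the human table for every 100 in the pig table over the same symbols (log axis), summed over each list with 5 or more measured members, for the xenograft at 48 h (red circles), the xenograft at 24 h (orange squares) and both controls (grey triangles). The T and NK list reaches 104 at 48 h, against 36.4 at 24 h and 2.60 in the controls, whereas lists such as the proteasome or fibroblast and matrix list differ little between the 3.

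Read over all genes, the human table followed the pig table. In the whole libraries it held 33.4 counts per 100 pig-table counts at 48 h and 29.0 at 24 h, against 22.8 and 18.8 in the controls. Among the 259 genes that rose and had at least 50 human counts at 48 h, the median was 32.6 per 100 at 48 h, 29.6 at 24 h and 20.0 in the controls. In 40 of them (15.4%) the 48 h figure was at least 5 times that of the controls, against 4.32% of 9474 genes inside 2-fold and 4 of 39 genes that fell. These genes entered by their human counts at 48 h, which also make up the 48 h figure. Genes nearly absent from the controls have an uncertain control figure. The shares are therefore a description only, and the difference between them was not tested. C1QA, C1QC and SERPINA1 are such genes, and TOP2A, CDK1 and C3 are not.

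Among vessel genes, 1 of 19 endothelial identity genes rose and 0 fell, with a median log2 ratio of 0.17. Of 20 genes of endothelial activation and coagulation 1 rose and 3 fell (15.0%), with a median of 0.13. Over all measured genes 3.48% rose and 0.981% fell, so 1 rise in lists of this size is near that share. The controls differed by medians of 0.33 and 0.35 on these lists, so both shifts were within their spread. SOX18, a transcription factor of endothelium, had 6.22 CPM at 48 h and 3.07 CPM at 24 h. ENTPD1, CD39, which breaks down extracellular ATP, rose to 36.1 CPM at 48 h against 17.7 CPM at 24 h, with 11.3 and 5.90 CPM in the controls. F13A1, a coagulation factor chain made by macrophages, had 22.3 CPM at 48 h, against 66.8 CPM at 24 h, 88.0 CPM at 12 h and 2.26 and 2.52 CPM in the controls. PROCR, the protein C receptor, had 12.0 CPM at 48 h and 24.7 CPM at 24 h, with 1.32 and 1.34 CPM in the controls. F13A1 and PROCR thus stayed above their controls as they fell. With library totals PROCR no longer passed 2-fold, at a log2 ratio of -0.92.

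Among the remaining lists, 1 of 13 kidney endocrine and vitamin D genes rose. That was CYP24A1, which inactivates vitamin D, with 19.5 CPM at 48 h, against 5.19 CPM at 24 h, 7.11 CPM at 12 h and 58.6 and 49.1 CPM in the controls. Of 8 EGF family genes 1 fell, EREG, epiregulin, with 10.4 CPM at 48 h and 23.6 CPM at 24 h. Of 6 motile cilia genes 1 rose, DNAH5, an axonemal dynein, with 2.49 CPM at 48 h and 1.10 CPM at 24 h, against 27.5 and 28.7 CPM in the controls. No gene passed 2-fold among 21 of TGF-beta, activin and BMP signalling, 18 of the actin skeleton and YAP or SRF targets, 21 of the proteasome, 19 of ribosome biogenesis and 20 of cholesterol synthesis and uptake. With 4.46% of all measured genes past 2-fold, single calls or none in lists this short carry no result about the list. In total 742 of 979 listed genes were measured, and 88 of the 404 genes that rose and 27 of the 114 that fell were on a list, 57 of the 88 on a list of proliferation or DNA repair.

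The genes that fell most among those with at least 200 counts, besides APOA4, CYP2A19, FXYD4, TTR and CALB1, were ssc-mir-10390, CCL26, CCL16, CA7, SLC5A8, WNT7B and CYP26B1. CCL16, a chemokine, had 5.42 CPM at 48 h, against 33.6 CPM at 24 h, 48.0 CPM at 12 h and 151 and 182 CPM in the controls. CCL26, eotaxin-3, had 2.80 CPM at 48 h, against 18.1 CPM at 24 h, 2.42 CPM at 12 h and 1.09 and 0.669 CPM in the controls. CCL16 thus fell away from its controls, and CCL26 returned toward them. CYP26B1, which breaks down retinoic acid, had 4.20 CPM at 48 h, 14.3 CPM at 24 h and 3.46 CPM at 12 h, with 3.05 and 3.63 CPM in the controls. SLC5A8, a monocarboxylate carrier, had 1.52 CPM at 48 h and 8.60 CPM at 24 h, WNT7B, a secreted ligand of tubule epithelium, 0.878 and 3.34 CPM, and CA7, a carbonic anhydrase, 0.923 and 5.67 CPM. The row of ssc-mir-10390 had 0.0893 CPM at 48 h, 3.21 CPM at 24 h and 0.0831 CPM at 12 h. A microRNA row in a library of long RNA does not show the mature microRNA.

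Among genes with the most counts, those that rose were COL3A1, CLU, HLA-DRA, ACTA2, MGP and CP, and those that fell included CALB1, CYP2C42, HAO2, SLC13A3 and RNF128. MGP, an inhibitor of calcification, had 231 CPM at 48 h and 105 CPM at 24 h, with 126 and 105 CPM in the controls. RNF128, a ubiquitin ligase, had 172 CPM at 48 h and 367 CPM at 24 h, with 204 and 236 CPM in the controls, and no longer passed 2-fold with library totals.

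A 2-fold step between the biopsies could lead away from untransplanted kidney or back to it. Of the 404 genes that rose, 249 (61.6%) were already above both controls at 24 h, 30 lay within the range of the controls and 125 (30.9%) lay below it. Of those 125, 80 ended above both controls at 48 h, 10 within their range and 35 still below. C3, C5, HLA-DRA and THY1 are among the 80, and CXCL12 and CYP24A1 among the 35. Of the 114 that fell, 78 (68.4%) were above both controls at 24 h, of which 50 stayed above, 6 came within the range and 22 ended below, and 29 were below both and fell further. FXYD4 is among the 50, CALB1 among the 22 and CYP2A19 among the 29. Over all measured genes 46.0% were above both controls at 24 h and 42.3% below. With 2 controls, this range is a rough one.

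**Figure D5:**
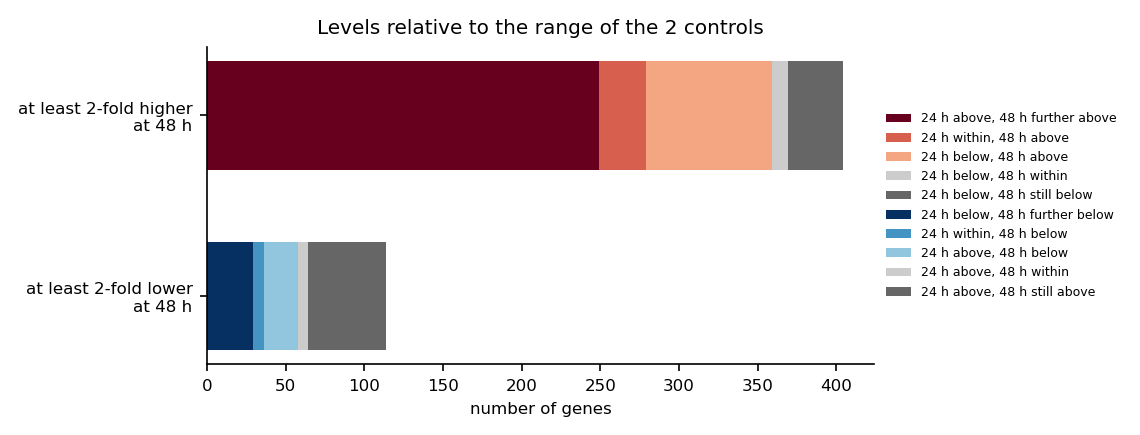
Number of genes at least 2-fold higher (top) or lower (bottom) at 48 h than at 24 h, split by where their 24 h and 48 h levels lay relative to the range of the 2 control libraries. Of the higher genes 249 were already above both controls at 24 h, and of the lower genes 50 were above both controls at both times.

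Some changes came from a 24 h level that stood apart. The 24 h level was the highest of the 5 libraries in 47 of the 114 genes that fell (41.2%), against 10.1% of all measured genes. It was the lowest in 52 of the 404 that rose (12.9%), near the 10.3% of all measured genes. The 24 h level chose these genes, so these counts are a description only. By distance from the other 4 libraries, the highest 24 h levels belonged to CCL26, CYP26B1, THEM6, CYP2C42, APOD and TNNI1, and the lowest to genes that included COL27A1, CXCL12, SFRP4, SGCD and INMT. CXCL12, the stromal chemokine that holds leukocytes through CXCR4, had 85.9 CPM at 48 h, against 26.9 CPM at 24 h, 55.8 CPM at 12 h and 151 and 129 CPM in the controls. SFRP4, a secreted inhibitor of WNT signalling, had 8.44 CPM at 48 h, 2.88 CPM at 24 h and 7.81 CPM at 12 h, with 29.4 and 21.1 CPM in the controls. APOD, a lipid carrier, had 17.1 CPM at 48 h, 40.0 CPM at 24 h and 16.3 CPM at 12 h. For SFRP4 and APOD the 48 h level was close to that of 12 h. Each time is 1 biopsy core, and a change with time and a difference between cores cannot be told apart.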

How the data were processed

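The deposited values were raw read counts per gene symbol in a pig and a human table, left as the authors made them; whole numbers with unequal totals carry no normalization. The submitters' processing notes name hg38 alone, a human build; the build of the pig table is not stated in them. The aligner, counting tool, strand setting, annotation and any competition between genomes are not given in the sources used here. Dropped were 58 pig rows of small RNA families (at most 0.00459% of counts) and, from the human table, XIST, TSIX and Y-linked rows. Columns were matched to libraries by time and replicate. TMM factors came from edgeR 4.0.16 in R 4.3.3, the 48 h to 24 h ratio from Python 3.11.15 with pandas 2.3.3, and intervals from SciPy 1.17.1. Genes with under 50 counts at both times were left out, and a difference of at least 2-fold was called. Code was tested on simulated data. The 45 gene lists and the members were chosen with earlier results of these data known. Genes were named by rule: the 12 largest folds each way at 200 or more counts, the 6 each way with the most counts, the 6 each way whose 24 h level stood farthest out, and in each list the 4 largest changes and 2 highest levels. C1QC, C2, C4A, C5, CDK1, CDKN1A, COL1A1, CSF1R, CXCL9, CXCL10, CYP4A24, E2F1, ECT2, FGB, FN1, LRP2, MCM2, MCM4, MYH11, PTPRC, PTX3, SERPINA1, SLC12A3 and TYMS fell outside it and were added after their values were seen. A few genes are not reported here. Alternatives covered scaling (library totals, upper quartile, DESeq2 1.42.0 size factors), count minimum, fold threshold, prior count and each control left out.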

Additional observations from a re-analysis of the deposited data

How the results depend on the processing

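The count of genes past the threshold depended most on the count minimum and on the threshold itself. With a minimum of 10 counts 614 genes were higher and 206 lower (201 past their own control difference), and without a minimum 957 and 451 (934 and 445 past it). With a minimum of 200 counts 67 genes were lower, all 67 past it. At 1.5-fold 1018 were higher and 439 lower (985 and 422 past it), and at 3-fold 155 and 34 (155 and 33). The share of genes apart between the controls was 1.48%, 5.28% and 0.111% with these count minimums, 3.25% at 1.5-fold, 0.0355% at 3-fold and 1.49% with library totals. Library totals in place of TMM moved the median log2 ratio of all genes to 0.12, and gave 534 higher and 79 lower genes (87.1% of the calls higher, against 78.0%). Under them the medians of the immediate early, glucocorticoid, proteasome, red cell and platelet, and kidney endocrine lists changed sign, to between 0.06 and 0.11; the glucocorticoid one also did so under upper quartile scaling, to 0.02. DESeq2 size factors, upper quartile scaling and a prior count of 2 gave counts within 1.5 times. Without control replicate 1 and without control replicate 2 the counts stayed at 404 higher and 114 lower genes. The ratio of 48 h to 24 h uses no control level, so leaving out a control was no check of these counts. An edgeR quasi-likelihood fit of all 5 libraries called 683 genes higher and 333 lower at an adjusted p of 0.05. It has 1 residual degree of freedom, from the controls, and assumes that lone biopsies vary like that pair. Of 115 list members past 2-fold, 9 no longer passed with library totals and 14 others did, against 3 and 5 with upper quartile scaling and 1 and 1 with DESeq2 size factors. No paired analysis was possible because the 48 h and 24 h groups hold 1 library each and share fewer than 2 replicate numbers. Depth limited genes under 200 counts most. Of these 14.9% passed 2-fold, against 1.66% in the same band between the controls. The part of depth in that share was not tested.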

Other observations

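Gene families were counted by symbol after the values were seen, and they overlap the lists, so part of these calls repeats those above. Over all measured genes 3.48% rose and 0.981% fell. Of 32 measured kinesin genes (KIF) 12 rose and 0 fell, and of 16 centromere protein genes (CENP) 10 rose and 0 fell. Of 8 E2F factor genes 4 rose, among them E2F8, a repressor that acts late in S phase, with 5.52 CPM at 48 h, against 0.661 CPM at 24 h, 0.249 CPM at 12 h and 0.201 and 0.248 CPM in the controls. Of 276 solute carrier genes (SLC) 8 rose and 14 fell, and in the organic ion branch SLC22 4 of 15 fell and 0 rose. SLC13A2, a citrate carrier of the brush border, had 38.9 CPM at 48 h and 107 CPM at 24 h, with 92.4 CPM at 12 h and 106 and 116 CPM in the controls. It was near its controls at 12 h and 24 h and below them at 48 h. Of 3 kallikrein genes 2 fell, and KLK1, tissue kallikrein of the distal nephron, had 85.5 CPM at 48 h and 244 CPM at 24 h, with 242 and 289 CPM in the controls. Of 14 measured ADAMTS proteases, which trim matrix, 5 rose and 0 fell. Of 63 cytosolic ribosomal protein genes 0 passed 2-fold either way. Of 12 thymus genes none was measured at 50 counts.

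Further stromal and macrophage genes, also chosen after their values were seen, rose between the biopsies. FAP, a protease of activated fibroblasts, had 23.3 CPM at 48 h and 8.60 CPM at 24 h, with 10.6 and 7.45 CPM in the controls, and CTHRC1, a secreted protein of matrix-making fibroblasts, had 13.6 and 4.82 CPM, with 5.83 and 6.84 CPM in the controls. COL8A1, type VIII collagen, had 33.3 CPM at 48 h and 11.2 CPM at 24 h, and LOXL1, an enzyme that crosslinks elastin, had 15.3 and 5.48 CPM. The human table held 59.6 FAP counts per 100 pig-table counts at 48 h, 60.6 at 24 h and 57.5 in the controls, so that its ratio differed little. CD209, a lectin of macrophages and dendritic cells, had 10.2 CPM at 48 h, against 0.977 CPM at 24 h, 0.097 CPM at 12 h and 1.71 and 2.60 CPM in the controls. CD209 was thus below its controls at 12 h and 24 h and above them at 48 h, with 2.92 human counts per 100 at 48 h. TIMD4, a phagocytic receptor of resident macrophages, had 3.11 CPM at 48 h and 0.551 CPM at 24 h, with 0.957 human counts per 100 at 48 h. CHI3L1, a secreted glycoprotein of injured tissue, had 8.57 CPM at 48 h and 0.840 CPM at 24 h, with 0.234 and 0.210 CPM in the controls. MNDA, a nuclear protein of myeloid cells, had 4.56 CPM at 48 h and 1.53 CPM at 24 h. Beside MNDA the human table held 376 counts per 100 at 48 h and 720 at 24 h, against 0.791 in the controls.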
